A study of Homo sapiens with 16 samples.

Results

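The 37 genes described here encode lysosomal hydrolases, the activator proteins that work with them, lysosomal membrane proteins and TFEB, a transcription factor of lysosomal genes. They are a list of known lysosomal genes, drawn up with earlier results of these data known, and were found in the deposited count table by gene identifier and symbol, 37 of 60649 genes. Of these, 36 had enough counts to be tested, among 19103 genes tested in all. By role they are 9 glycosidases, 5 enzymes that remove sulfate groups, 5 lipid hydrolases and activators, 11 peptidases, 6 membrane proteins and TFEB.

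Lysosomes break down proteins, glycans and lipids with hydrolases that work at acid pH, which is held by a proton pump, the V-ATPase. Most of the soluble enzymes are tagged with mannose 6-phosphate in the Golgi apparatus and carried to the lysosome by receptors for that tag, while heavily glycosylated proteins such as LAMP1 and LAMP2 line the membrane. TFEB and its relatives bind a palindromic promoter motif, CACGTG with its flanks, in front of many of these genes. Senescent cells are known for an enlarged lysosomal compartment, and the beta-galactosidase activity used to stain them comes from GLB1.

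The cells were mesenchymal stem cells (MSCs) of the wild-type (wt) line ASC52telo, adipose-derived cells immortalized with telomerase, so that all 16 libraries come from 1 line grown in vitro. Cells labelled senescent (MmC+) had been kept for 18 h in 1.5 µg/mL mitomycin C (MmC), which alkylates DNA, and cells labelled young (MmC-) had not. Over the next 10 days, recombinant growth differentiation factor 11 (GDF11), a TGF-beta family cytokine, was given at 10 ng/mL (GDF11+) or left out (GDF11-). Poly(A) RNA was sequenced from 4 biological replicates of each group. The groups are called MmC-/GDF11- and MmC+/GDF11- where GDF11 was left out, and MmC-/GDF11+ and MmC+/GDF11+ where it was given.

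Total counts were between 71275337 and 144204979 per library, and the 37 genes took between 0.717 and 1.03% of them. At that depth 34 of the 37 genes had at least 100 counts in every library. CTSO, a cathepsin, had 0 to 2 counts per library and was not tested, and 100% of its exonic 31-base words also lie on alternate contigs of the assembly, so its low count does not show its level. The labels were checked on a fixed list of 7 genes. After MmC without GDF11, CDKN1A, an inhibitor of the cell cycle, was 6.67-fold higher and MKI67, a proliferation gene, was 3.25-fold lower. IL6 and CXCL8 were also higher and LMNB1 and TOP2A also lower, while CDKN2A, another inhibitor of the cell cycle, did not pass. All 6 MSC surface markers checked (NT5E, THY1, ENG, CD44, ITGB1 and PDGFRB) were counted in every library, the lowest at 186 CPM (read counts relative to the TMM-scaled library size, the scale of every level below). After MmC without GDF11, 2 of the 6 passed as higher and 1 as lower, with log2 fold changes from -0.68 to 0.38. In MmC+/GDF11-, IL6 and CXCL8 were lowest in replicate 1, at 146 and 1010 CPM, against at least 741 and 4000 CPM in the other libraries. For the lysosomal genes replicate 1 stood apart in 3 groups. Its libraries held the highest value of the group for 26 of the 36 tested genes in MmC-/GDF11- and 25 in MmC+/GDF11-, and for 12 in the young and 27 in the senescent cells given GDF11. The median log2 ratio of replicate 1 to the mean of the other replicates was 0.30 and 0.28 without GDF11 and 0.04 and 0.36 with it, in the same order.

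To show the motif in front of members of the list, the windows from 250 bases before to 50 bases after the RefSeq transcription start (GRCh38.p14) were searched for CACGTG, for TCACGTGA and for GTCACGTGAC. Each of these is its own reverse complement, so both strands are covered, and each longer motif contains the shorter. Windows were given for 25 of the 37 genes, and every listed window of a gene was searched. For all of them but GLB1 a listed start lay within 100 bases of the canonical start in GENCODE v44. For GLB1 the nearest listed start lay 324 bases downstream of it. CACGTG was present in 9 of the 25 (ARSB, CD63, CTSA, CTSD, CTSF, GAA, GALNS, LAMP1 and MCOLN1), 36% of them, against 8.77% of all 27305 genes with a window. The ARSB copy lies in the window of another listed start (chr5:78985909-78986208, minus strand). That window is wholly upstream of the canonical start of ARSB at 78985310. TCACGTGA was in 5 of 25, 20% against 1.18% of all genes, and GTCACGTGAC in GAA, GALNS and MCOLN1, 12% against 0.421%. The motifs were also frequent in the other lysosomal and autophagy lists counted below. Of their 104 genes with a window 23.1% held CACGTG, 12.5% TCACGTGA and 4.81% GTCACGTGAC. LAMP1 held 6 copies of CACGTG, 5 of them in the 250 bases before its start, at 192, 176, 159, 142 and 28 bases upstream. The sequences below run 5′ to 3′ on the strand of the gene, with CACGTG in capitals, and show how the copies are spaced in LAMP1 and MCOLN1 and how their flanks differ among GAA, GALNS, CTSA and CTSD.
LAMP1 (chr13:113296989-113297238, plus strand): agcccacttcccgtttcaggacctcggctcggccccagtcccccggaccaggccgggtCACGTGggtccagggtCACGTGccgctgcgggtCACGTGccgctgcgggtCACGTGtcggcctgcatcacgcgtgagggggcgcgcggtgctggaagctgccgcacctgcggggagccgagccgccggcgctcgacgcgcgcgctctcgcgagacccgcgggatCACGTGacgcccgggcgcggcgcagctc
MCOLN1 (chr19:7522554-7522623, plus strand): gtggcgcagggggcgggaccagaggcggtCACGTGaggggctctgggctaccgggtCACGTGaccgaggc
GAA (chr17:80101495-80101520, plus strand): gaggccgcgtCACGTGacccaccgcg
GAA (chr17:80101540-80101565, plus strand): tcccgccggtCACGTGacccgcctct
GALNS (chr16:88857106-88857131, minus strand): ggcaccgcgtCACGTGacccgccgct
GALNS (chr16:88856964-88856989, minus strand): ccccgcgagtCACGTGgccgtccagg
CTSA (chr20:45891290-45891319, plus strand): tgtCACGTGgcgccggagttCACGTGactc
CTSD (chr11:1763959-1763984, minus strand): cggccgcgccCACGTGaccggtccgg
The copies printed for LAMP1 and MCOLN1 lie upstream of the first exon. The second GAA copy and both CTSA copies lie in exonic sequence of those genes in GENCODE v44, and the upstream GALNS copy lies in an exon of TRAPPC2L on the other strand. A match is a match of letters and shows no binding. The motif was searched because it is known from genes of this kind, so its higher share here is not an independent result.

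The first question was how senescence after MmC changed the list. Without GDF11, 24 of the 36 tested genes rose after MmC, 2 fell (GUSB and CTSL) and 10 did not pass the test. This was edgeR's quasi-likelihood test of 4 against 4 libraries with Benjamini-Hochberg adjustment over all 19103 genes at 0.05, the source of every adjusted p below. Over all genes tested 22.9% passed as higher and 22.4% as lower, 45.3% in all, so that 24 of 36 higher has to be read against a comparison in which nearly as many genes fell as rose. The median log2 fold change was 0.55 for the 36 genes, a 1.46-fold higher level, and -0.01 for all genes. In 20 genes all MmC+ libraries lay above all MmC- libraries and in 1 all lay below, while the same held for 19.1% and 18.2% of all genes, 37.3% in all. The rises were mostly modest. Among the 36 genes 47.2% passed the test with a rise of at least 1.5-fold, against 16.4% of all genes, and 11.1% with a rise of at least 2-fold, against 11.1% of all genes. The share of counts on mitochondrial genes moved with MmC as well. It was 2.81 to 3.11% in the young and 3.55 to 4.48% in the senescent libraries without GDF11, and 1.58 to 3.04% and 3.75 to 4.73% with GDF11, and its part in these changes was not tested. Bulk RNA does not separate cells of different kinds, so fewer cells of a type and less RNA per cell cannot be told apart.

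**Figure D1:**
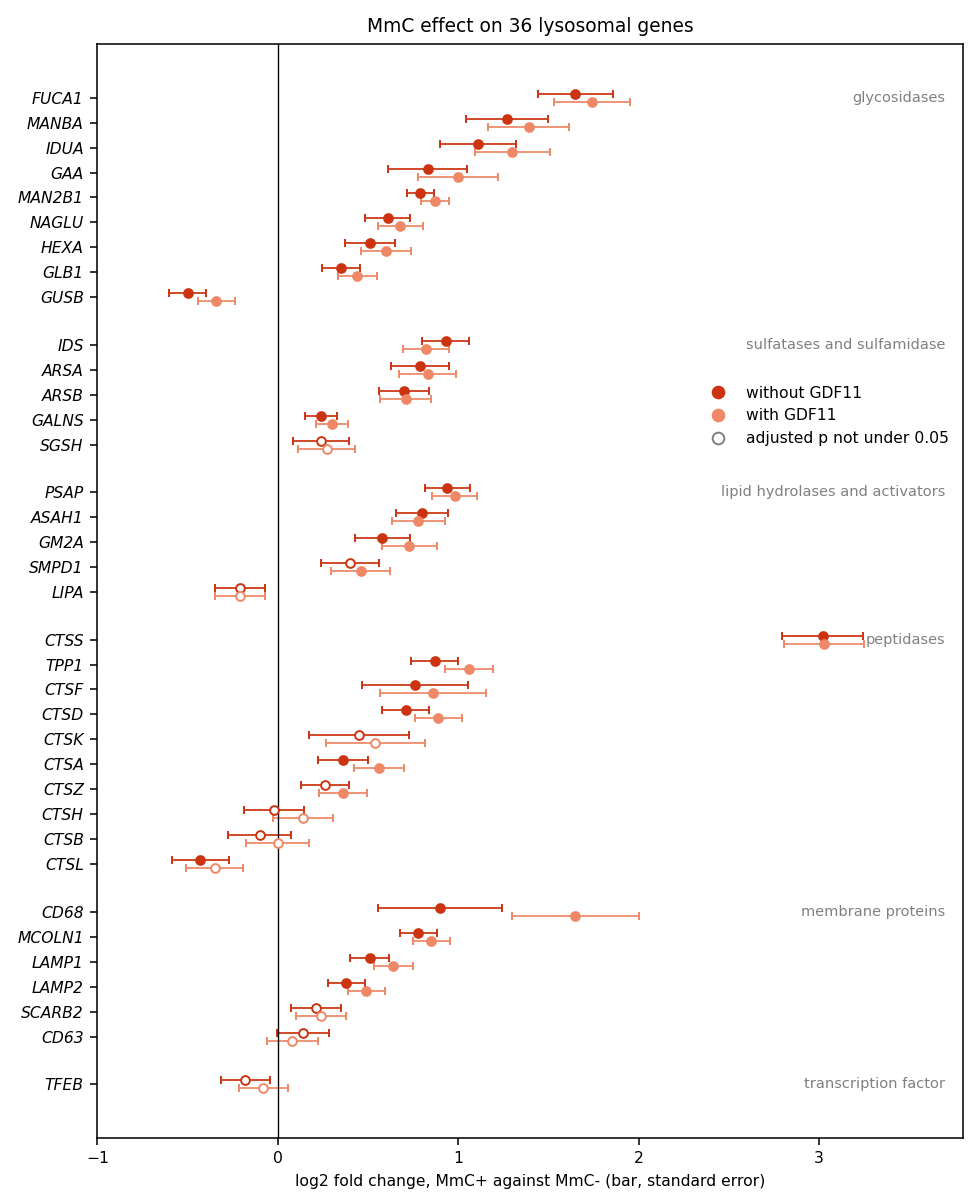
Log2 fold change of MmC+ against MmC- (x axis) for the 36 tested genes, grouped by role, without GDF11 (dark) and with GDF11 (light), with the standard error as a bar and open points where the adjusted p was not under 0.05. Most points lie to the right of 0, with medians of 0.55 and 0.66, CTSS lies farthest right at 3.02 and 3.03, and GUSB lies left of 0 in both comparisons.

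All 9 glycosidases, which cut sugar chains, passed the test without GDF11, 8 higher and 1 lower. GLB1 (ENSG00000170266.16, chromosome 3 from 32996609 to 33097202 on the minus strand; positions are those of GENCODE v44 on hg38) is the lysosomal beta-galactosidase. GLB1 was counted at 97.5, 86.5, 83.4 and 84.2 CPM in replicates 1 to 4 of the young cells and at 133, 99.2, 107 and 110 CPM in those of the senescent cells without GDF11. Every senescent library lay above every young one, by a narrow margin (99.2 against 97.5 CPM), and GLB1 rose by 0.35 ± 0.11 (log2 ± SE), or 1.28-fold, with an edgeR adjusted p of 0.0138. With GDF11 its levels were 84.9, 76.2, 84.3 and 85.4 CPM before and 136, 101, 102 and 111 CPM after MmC, again without overlap, a 1.36-fold rise (adjusted p 0.00319).

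FUCA1 (ENSG00000179163.12, chromosome 1 from 23845077 to 23868290 on the minus strand), the alpha-L-fucosidase that takes fucose off glycoproteins, had the highest rise of the class. FUCA1 was counted at 6.21, 4.76, 4.06 and 5.42 CPM in replicates 1 to 4 of the young cells and at 23.5, 13.5, 13.7 and 13.6 CPM in those of the senescent cells without GDF11. The groups did not overlap, and the fold change was 3.14 (log2 1.65 ± 0.21, edgeR adjusted p 1.44e-05). In the cells given GDF11 the values were 4.53, 4.25, 4.88 and 5.52 CPM before and 22.4, 13.9, 13.3 and 14.4 CPM after MmC, 3.33-fold higher. In both senescent groups replicate 1 was well above the other 3 libraries, which lay between 13.3 and 14.4 CPM over both groups. The beta-mannosidase MANBA rose 2.41-fold and IDUA, the iduronidase that degrades heparan and dermatan sulfate, 2.16-fold. Smaller rises were found for GAA, which degrades glycogen (1.78-fold), the alpha-mannosidase MAN2B1 (1.72-fold), NAGLU, an enzyme of heparan sulfate breakdown (1.53-fold), and HEXA, the alpha subunit of beta-hexosaminidase (1.42-fold). GAA was the only 1 of these 8 whose young and senescent libraries overlapped, through replicate 1 of the young cells.

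GUSB (ENSG00000169919.17, chromosome 7 from 65960684 to 65982215 on the minus strand), the beta-glucuronidase, fell. GUSB was counted at 46.5, 47.5, 43.8 and 42.5 CPM in replicates 1 to 4 of the young cells and at 26.6, 34.2, 33.5 and 32.9 CPM in those of the senescent cells without GDF11. All 4 senescent libraries were below all 4 young ones, and GUSB was 1.42-fold lower (log2 -0.50 ± 0.10, edgeR adjusted p 0.000918). With GDF11 the values were 35.2, 41.4, 41.7 and 41.2 CPM before and 26.6, 30.4, 33.9 and 35 CPM after MmC, 1.27-fold lower, where the groups were separated only by 35.2 against 35 CPM. Of the exonic words of GUSB 15.3% also occur elsewhere on the primary assembly, so that part of its reads could be counted on other genes or left out.

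Of the sulfatases and the sulfamidase, 4 of 5 rose without GDF11 and SGSH, the sulfamidase of heparan sulfate breakdown, did not pass (log2 0.24 ± 0.16, edgeR adjusted p 0.216). IDS (ENSG00000010404.18, chromosome X from 149476988 to 149521096 on the minus strand), the iduronate sulfatase, rose most. IDS was counted at 12.3, 13.1, 16.4 and 17.2 CPM in replicates 1 to 4 of the young cells and at 32.1, 24.2, 27.3 and 28.3 CPM in those of the senescent cells without GDF11. No libraries overlapped, and the rise was 1.9-fold (log2 0.93 ± 0.13, adjusted p 3.33e-05). With GDF11 IDS had 13.7, 16.8, 14.6 and 17.3 CPM before and 30.6, 23.7, 27.7 and 28.7 CPM after MmC, 1.77-fold higher. Other genes on the same strand share 75.9% of its exonic sequence, which leaves its count uncertain. ARSA, which removes sulfate from sulfatide, was 1.72-fold higher and ARSB, which acts on dermatan and chondroitin sulfate, 1.62-fold higher.

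GALNS (ENSG00000141012.13, chromosome 16 from 88813734 to 88856970 on the minus strand), the sulfatase of keratan sulfate breakdown, had the smallest rise that passed in any class. GALNS was counted at 45.8, 39.8, 38 and 42.9 CPM in replicates 1 to 4 of the young cells and at 54.9, 47.8, 46.3 and 47.9 CPM in those of the senescent cells without GDF11. The lowest senescent library (46.3 CPM) was just above the highest young one (45.8 CPM), a 1.18-fold difference (log2 0.24 ± 0.09, edgeR adjusted p 0.032). With GDF11 the values were 38.8, 38.8, 40.8 and 40.4 CPM before and 53.4, 42.4, 48.7 and 50.4 CPM after MmC (adjusted p 0.0108). Without GDF11 the call was lost without a filter on low counts, in the fit of the 8 libraries alone, and without senescent replicate 1 or young replicate 2 or 3, with an edgeR adjusted p of up to 0.123.

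Among the lipid hydrolases and activators 3 of 5 rose without GDF11. PSAP (ENSG00000197746.14, chromosome 10 from 71816298 to 71851251 on the minus strand) encodes prosaposin, which is cut into the saposins that present sphingolipids to their hydrolases. PSAP was counted at 1230, 950, 903 and 782 CPM in replicates 1 to 4 of the young cells and at 1730, 1990, 1860 and 1820 CPM in those of the senescent cells without GDF11. The senescent libraries were all at 1730 CPM or more and the young ones at 1230 CPM or less. PSAP was 1.92-fold higher (log2 0.94 ± 0.12, edgeR adjusted p 1.99e-05), and with GDF11, at 927, 982, 927 and 821 CPM before and 1750, 1750, 1820 and 1910 CPM after MmC, 1.98-fold higher. The acid ceramidase ASAH1 rose 1.74-fold.

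GM2A (ENSG00000196743.9, chromosome 5 from 151212150 to 151270440 on the plus strand), the activator protein of ganglioside breakdown, had the smaller rise of those that passed in this class. GM2A was counted at 59.8, 55.4, 47.3 and 51.2 CPM in replicates 1 to 4 of the young cells and at 107, 72.8, 71.8 and 68.1 CPM in those of the senescent cells without GDF11. No library overlapped between the groups, replicate 1 of the senescent cells was far above the other 3, and the rise was 1.5-fold (log2 0.58 ± 0.15, edgeR adjusted p 0.00567). With GDF11 the levels of GM2A were 49.3, 47.9, 47.3 and 49.8 CPM before and 107, 79.1, 66.8 and 68.7 CPM after MmC. SMPD1, the acid sphingomyelinase, missed the threshold without GDF11 (log2 0.40 ± 0.16, adjusted p 0.0581) and passed it with GDF11 (log2 0.46 ± 0.16, adjusted p 0.0301). LIPA, the acid lipase that hydrolyses cholesteryl esters, had a log2 fold change of -0.21 ± 0.14 and did not pass in either comparison.

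The peptidases were mixed, with 5 of 10 tested higher, CTSL lower and 4 not passing without GDF11. CTSS (ENSG00000163131.12, chromosome 1 from 150730079 to 150765957 on the minus strand), a cysteine cathepsin that stays active at neutral pH and trims the invariant chain in antigen-presenting cells, had the largest fold change of the 36 genes in both MmC comparisons. CTSS was counted at 10.6, 6.22, 7.67 and 7.14 CPM in replicates 1 to 4 of the young cells and at 50.1, 70, 81.7 and 53.9 CPM in those of the senescent cells without GDF11. Every senescent library was at least at 50.1 CPM and no young library above 10.6 CPM, 8.09-fold (log2 3.02 ± 0.22, edgeR adjusted p 1.09e-07). With GDF11 the values were 9.67, 7.63, 7.72 and 5.51 CPM before and 51.5, 73.4, 74.2 and 50.7 CPM after MmC, 8.19-fold higher. Of the exonic words of CTSS 18.4% also occur elsewhere on the primary assembly and 11.9% on alternate contigs, so that part of its reads could be counted on other genes or left out. Since CTSS and CD68 are also typical of macrophages, a list of 10 macrophage and leukocyte markers was set beside them. Of its 7 tested genes CD163, ITGAM, FCER1G and CD14 were higher after MmC without GDF11, MRC1 was lower and PTPRC and CSF1R did not pass. The summed level of the 10 markers was 2.73 to 3.52 CPM in young and 5.47 to 6.56 CPM in senescent cells without GDF11, and 2.70 to 3.53 CPM and 5.38 to 6.27 CPM with GDF11. TYROBP reached 0.0203 CPM and SPI1 0.105 CPM at most. AIF1 had 0 counts in all libraries, but all of its exonic words lie on alternate contigs as well, as do 58.8% of those of PTPRC. The part of such cells in the rise of CTSS was not tested.

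TPP1 (ENSG00000166340.18, chromosome 11 from 6612768 to 6619448 on the minus strand), the tripeptidyl peptidase, was next among the peptidases. TPP1 was counted at 69.6, 43.1, 46.9 and 58.1 CPM in replicates 1 to 4 of the young cells and at 99.7, 94.8, 97.2 and 105 CPM in those of the senescent cells without GDF11. All senescent libraries were above all young ones, 1.82-fold (log2 0.87 ± 0.13, edgeR adjusted p 7.8e-05). With GDF11, at 50.1, 39.4, 50.3 and 53.1 CPM before and 99.9, 91.5, 98.2 and 112 CPM after MmC, the rise was 2.08-fold. The cysteine cathepsin CTSF rose 1.7-fold (adjusted p 0.0439) and the aspartic protease CTSD 1.64-fold (adjusted p 0.000387). The call of CTSF was lost without a filter, in the fit of the 8 libraries alone, and without senescent replicate 1 or 2 or young replicate 2, 3 or 4, with an edgeR adjusted p of up to 0.127. For CTSD, 27.3% of the exonic sequence is shared with same-strand genes.

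CTSA (ENSG00000064601.21, chromosome 20 from 45890144 to 45898949 on the plus strand) is the carboxypeptidase that also holds GLB1 and a neuraminidase in a stable complex. CTSA was counted at 372, 270, 257 and 259 CPM in replicates 1 to 4 of the young cells and at 444, 338, 346 and 355 CPM in those of the senescent cells without GDF11. Replicate 1 of the young cells was above 3 of the 4 senescent libraries, and the 1.28-fold rise passed narrowly (log2 0.36 ± 0.14, edgeR adjusted p 0.0456). With GDF11 the levels were 256, 225, 261 and 265 CPM before and 450, 325, 330 and 379 CPM after MmC, without overlap (adjusted p 0.00373). Without GDF11 the call of CTSA was lost in the fit of the 8 libraries alone and without senescent replicate 1, 3 or 4 or young replicate 2, 3 or 4, with an edgeR adjusted p of up to 0.133. Genes on the other strand cover 21.5% of the exonic sequence of CTSA and 31.7% of that of CTSZ, and since the strand setting of the counting is not given, part of their counts is uncertain.

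CTSL (ENSG00000135047.16, chromosome 9 from 87724051 to 87731469 on the plus strand), a cysteine cathepsin of general protein turnover, went the other way. CTSL was counted at 496, 522, 480 and 575 CPM in replicates 1 to 4 of the young cells and at 386, 318, 343 and 488 CPM in those of the senescent cells without GDF11. Replicate 4 of the senescent cells (488 CPM) overlapped the young libraries and the other 3 were below them. The fall was 1.35-fold (log2 -0.43 ± 0.16, edgeR adjusted p 0.034), and the call was lost with at least 10 counts in every library, without replicate 1 of every group, and without senescent replicate 1, 2 or 3 or young replicate 2 or 4, with an adjusted p of up to 0.111. With GDF11, at 451, 513, 496 and 545 CPM before and 400, 324, 322 and 531 CPM after MmC, the test was not passed (log2 -0.35 ± 0.16, adjusted p 0.0829). CTSB, the most abundant cathepsin here, had 1570 ± 199 CPM (SD, n = 4) in young and 1470 ± 363 CPM in senescent cells and did not pass (log2 -0.10 ± 0.17, 95% interval -0.47 to 0.27). CTSH and CTSZ did not pass without GDF11, at log2 -0.02 and 0.26. CTSK, the collagen-degrading cathepsin of osteoclasts, had a log2 fold change of 0.45 ± 0.28 with an adjusted p of 0.192. Same-numbered libraries deviated together in this comparison, and with the replicate number as a block CTSK, CTSZ and SMPD1 passed as higher (edgeR adjusted p 0.000436, 0.0103 and 0.00411).

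Of the 6 membrane proteins 4 rose without GDF11, and SCARB2 and CD63 did not pass. MCOLN1 (ENSG00000090674.16, chromosome 19 from 7522624 to 7534009 on the plus strand) encodes the lysosomal calcium release channel. MCOLN1 was counted at 13.4, 15.1, 12.7 and 15.6 CPM in replicates 1 to 4 of the young cells and at 22, 25.1, 24.8 and 25.5 CPM in those of the senescent cells without GDF11. The groups did not overlap, the spread within each was small, and the rise was 1.71-fold (log2 0.78 ± 0.10, edgeR adjusted p 2.22e-05). With GDF11 it had 12.6, 12.7, 13.2 and 16 CPM before and 21.6, 26.3, 25.3 and 24.6 CPM after MmC, 1.8-fold higher.

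LAMP1 (ENSG00000185896.11, chromosome 13 from 113297239 to 113323672 on the plus strand), whose promoter window with 5 upstream copies of CACGTG is printed above, rose as well. LAMP1 was counted at 463, 366, 356 and 383 CPM in replicates 1 to 4 of the young cells and at 634, 540, 513 and 541 CPM in those of the senescent cells without GDF11. The senescent libraries were all higher than the young ones, 1.42-fold (log2 0.51 ± 0.11, edgeR adjusted p 0.00128). With GDF11 the values were 369, 332, 349 and 370 CPM before and 635, 526, 495 and 555 CPM after MmC, 1.56-fold higher. LAMP2 (ENSG00000005893.16, chromosome X from 120426148 to 120469365 on the minus strand), the related protein that also serves chaperone-mediated autophagy, had the smallest rise that passed among the membrane proteins. LAMP2 was counted at 186, 156, 175 and 181 CPM in replicates 1 to 4 of the young cells and at 254, 198, 228 and 229 CPM in those of the senescent cells without GDF11. These groups did not overlap either, and the rise was 1.3-fold (log2 0.38 ± 0.10, adjusted p 0.00643). With GDF11 LAMP2 was at 186, 141, 168 and 178 CPM before and 258, 219, 233 and 236 CPM after MmC.

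CD68 (ENSG00000129226.14, chromosome 17 from 7579491 to 7582111 on the plus strand), a glycoprotein of endosomes and lysosomes that is abundant in macrophages, had the highest log2 fold change of the membrane proteins but between 5 and 47 counts per library. CD68 was counted at 0.169, 0.238, 0.0786 and 0.106 CPM in replicates 1 to 4 of the young cells and at 0.182, 0.326, 0.257 and 0.357 CPM in those of the senescent cells without GDF11. The groups overlapped, and the rise of 1.87-fold passed narrowly (log2 0.90 ± 0.34, edgeR adjusted p 0.0415). With GDF11, at 0.0973, 0.0671, 0.115 and 0.156 CPM before and 0.246, 0.407, 0.32 and 0.416 CPM after MmC, the groups did not overlap (log2 1.65 ± 0.35, adjusted p 0.00134). Another gene on the same strand covers 81.6% of its exonic sequence, and without GDF11 its call was lost without a filter, in the fit of the 8 libraries alone, and without senescent replicate 2, 3 or 4 or young replicate 3 or 4, with an edgeR adjusted p of up to 0.115. CD63 (ENSG00000135404.12, chromosome 12 from 55725323 to 55729707 on the minus strand), a tetraspanin of late endosomes and exosomes, had the highest level per length of the 37 genes. CD63 was counted at 1660, 1910, 1520 and 1320 CPM in replicates 1 to 4 of the young cells and at 2030, 1610, 1730 and 1700 CPM in those of the senescent cells without GDF11. Young and senescent libraries were interleaved (log2 0.14 ± 0.14, 95% interval -0.16 to 0.44, adjusted p 0.437), and so they were with GDF11, at 1600, 1670, 2030 and 1380 CPM before and 2090, 1670, 1610 and 1690 CPM after MmC. SCARB2, a sorting receptor of the lysosomal membrane, had a log2 fold change of 0.21 ± 0.14 (adjusted p 0.235).

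TFEB (ENSG00000112561.19, chromosome 6 from 41683978 to 41736259 on the minus strand) did not pass in either MmC comparison. TFEB was counted at 4.85, 5.27, 4.55 and 4.04 CPM in replicates 1 to 4 of the young cells and at 4.23, 4.75, 4.19 and 3.28 CPM in those of the senescent cells without GDF11. Senescent replicate 4 was the lowest of the 8 libraries and the others were interleaved (log2 -0.18 ± 0.14, 95% interval -0.47 to 0.10, edgeR adjusted p 0.281). With GDF11 the values were 4.24, 4.16, 3.98 and 3.75 CPM before and 4.1, 4.01, 4.02 and 3.08 CPM after MmC (log2 -0.08 ± 0.14, adjusted p 0.641). These are levels of its RNA, while the activity of TFEB is known to be set largely by phosphorylation and its place in the cell.

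**Figure D2:**
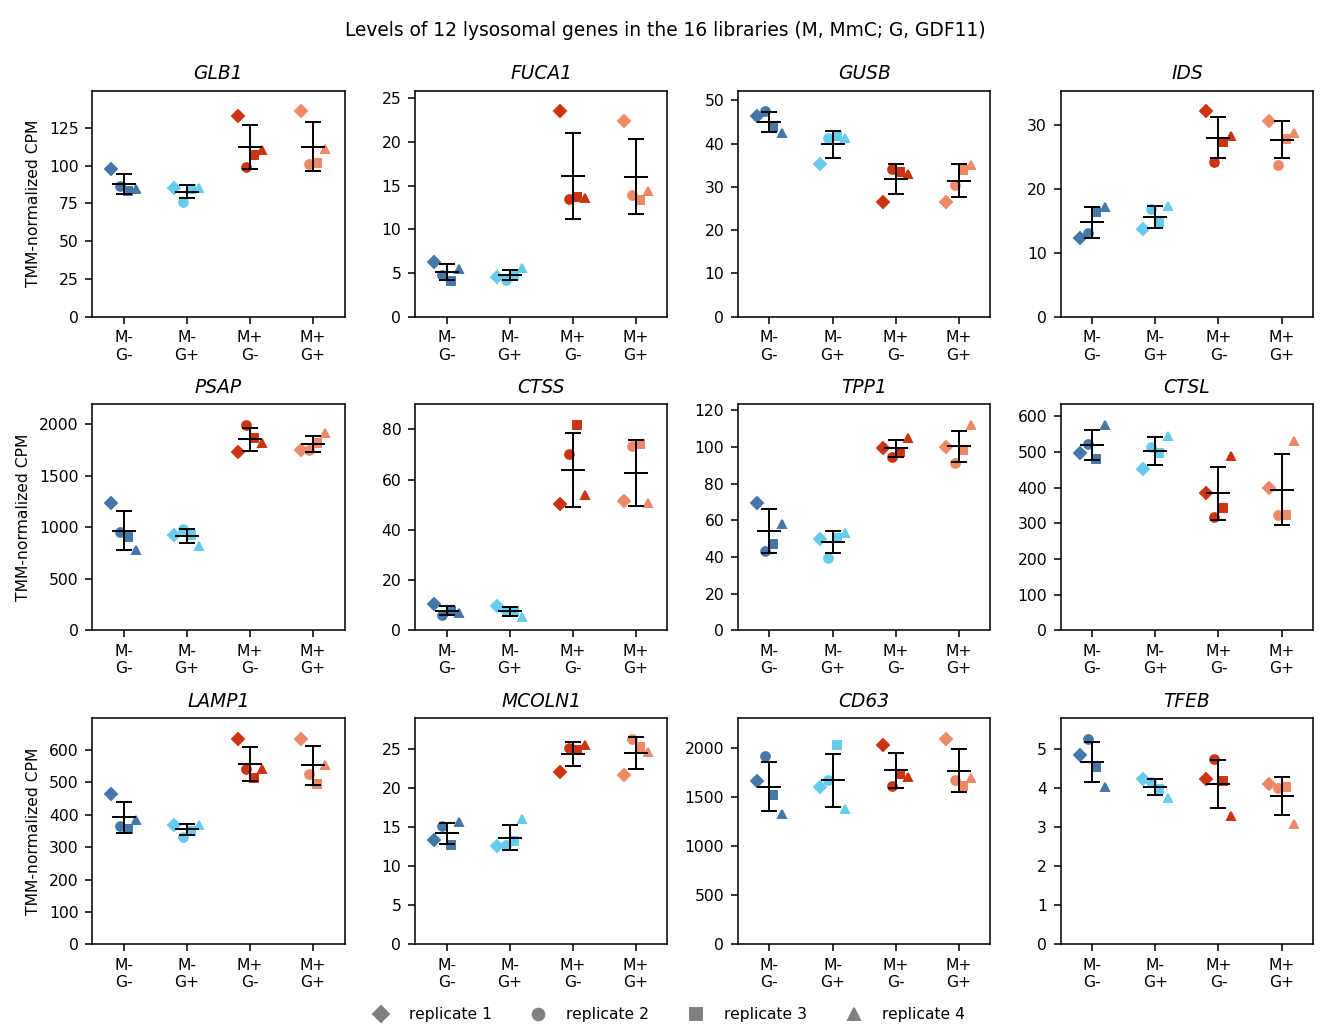
TMM-normalized CPM (y axis, from 0) of 12 of the genes in the 4 groups (x axis; M, MmC and G, GDF11), with 1 symbol per library, its shape giving the replicate number, and the mean and SD over 4 libraries in black. CTSS and FUCA1 show the widest gaps between MmC- and MmC+, GUSB lies lower after MmC, CD63 and TFEB overlap, and replicate 1 (diamonds) is the highest senescent library of GLB1, FUCA1 and LAMP1.

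Of the 9 genes with CACGTG in their window 8 were higher after MmC without GDF11 and none lower, with a median log2 fold change of 0.70. Of the 16 tested genes whose window held no copy, 8 were higher and 2 lower, with a median of 0.38. The ranges, 0.14 to 0.83 and -0.50 to 1.65, overlapped, and no test was made of this split. GUSB, CTSL and FUCA1 were among those without a copy. ARSB counts among the 9 through a window that lies upstream of its canonical start. GLB1 counts among the 16, although its listed start lay downstream of the canonical start. The split leaves out the genes for which no window was given. Of those, HEXA, CTSS, ARSA, PSAP, LAMP2, ASAH1, MANBA and NAGLU rose after MmC without GDF11, and SGSH, CTSB and CTSK did not pass. CTSO, also without a window, was not tested. CTSS, with the largest fold change of the list, is thus in neither set.

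The sum over the list followed a few abundant genes. Without GDF11 it was 7630 ± 855 CPM (SD, n = 4) in young and 9570 ± 969 CPM in senescent cells, and with GDF11 7350 ± 367 CPM and 9560 ± 1160 CPM. Within each comparison the libraries did not overlap. The lowest senescent and highest young library were at 8970 and 8770 CPM without GDF11 and at 8700 and 7770 CPM with GDF11. Only across the comparisons was a senescent library (8700 CPM, MmC+/GDF11+) just under a young one (8770 CPM, MmC-/GDF11- replicate 1). CD63, CTSB and PSAP together made between 52.8 and 55.2% of the sum in every group. Of the rise without GDF11, PSAP alone made 45.5%, CD63, which did not pass the test, 8.58% and LAMP1 8.47%. CTSL was lower by 135 CPM and CTSB, which did not pass either, by 104 CPM on average. Per kilobase of the canonical transcript, averaged over all libraries, CD63 had the highest level at 1660 CPM, then PSAP at 504, CTSB at 401 and CTSL at 272 CPM. CTSA, LAMP1, CTSZ and CTSK followed so closely, between 169 and 173 CPM per kilobase, that their order means little, and GLB1 came at 39.2 CPM per kilobase. At the low end were TFEB at 1.78, CTSH at 0.557 and CD68 at 0.13 CPM per kilobase.

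**Figure D3:**
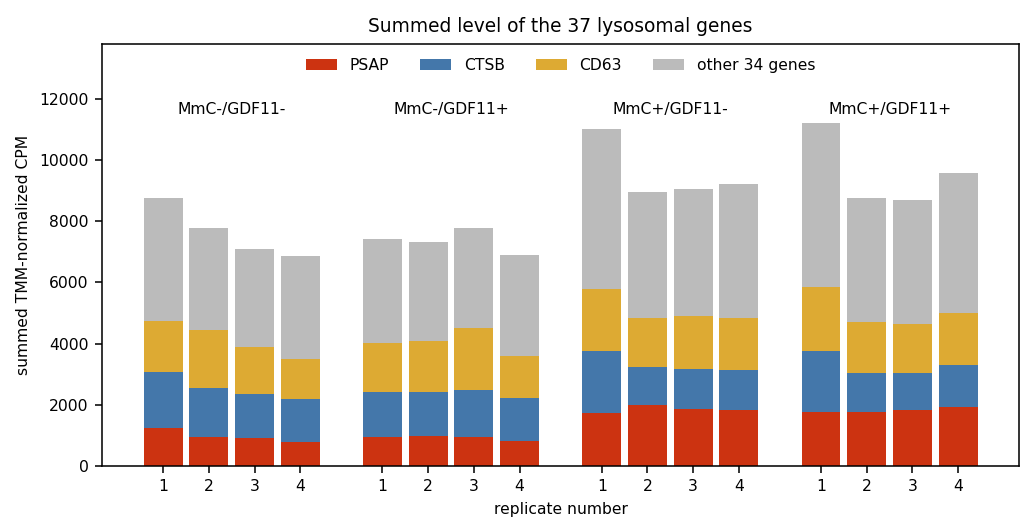
Summed TMM-normalized CPM of the 37 genes (y axis, from 0) in each of the 16 libraries (x axis, by group and replicate number), split into PSAP, CTSB, CD63 and the other 34 genes. The senescent libraries reach 8700 to 11200 CPM and the young ones 6860 to 8770 CPM, with replicate 1 highest in both senescent groups and in MmC-/GDF11-.

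The same comparison in the cells given GDF11 uses other libraries but shares the estimate of the spread. There 26 of the 36 genes rose after MmC, GUSB fell and 9 did not pass, with a median log2 fold change of 0.66, or 1.58-fold, against -0.01 for all genes. Of all genes 23.4% passed as higher and 23.3% as lower, 46.7% in all. In 26 genes the groups did not overlap with MmC+ above and in 1 with MmC+ below, against 20.2% and 21.2% of all genes, 41.5% in all. By the test 55.6% of the 36 genes rose at least 1.5-fold (16.9% of all genes) and 16.7% at least 2-fold (11.2% of all genes). In both comparisons 24 genes were higher and GUSB lower. CTSL passed only without GDF11, and CTSZ and SMPD1 only with GDF11, while CD63, CTSB, CTSH, CTSK, LIPA, SCARB2, SGSH and TFEB passed in neither. The calls of SMPD1 and CTSZ with GDF11 were lost without senescent replicate 1 or young replicate 3 or 4 of that comparison, with an edgeR adjusted p of up to 0.11 and 0.142. That of CTSF was lost there without a filter and without senescent replicate 1 or young replicate 2, 3 or 4 (up to 0.0796). A call in 1 comparison and not in the other does not show that the effects differ, and the test of that difference, the interaction of MmC and GDF11, passed for none of the 36 genes (0% of all genes). CD68 had the lowest unadjusted p of that test (log2 0.75 ± 0.49, 95% interval -0.30 to 1.79, unadjusted p 0.152, edgeR adjusted p 1).

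**Figure D4:**
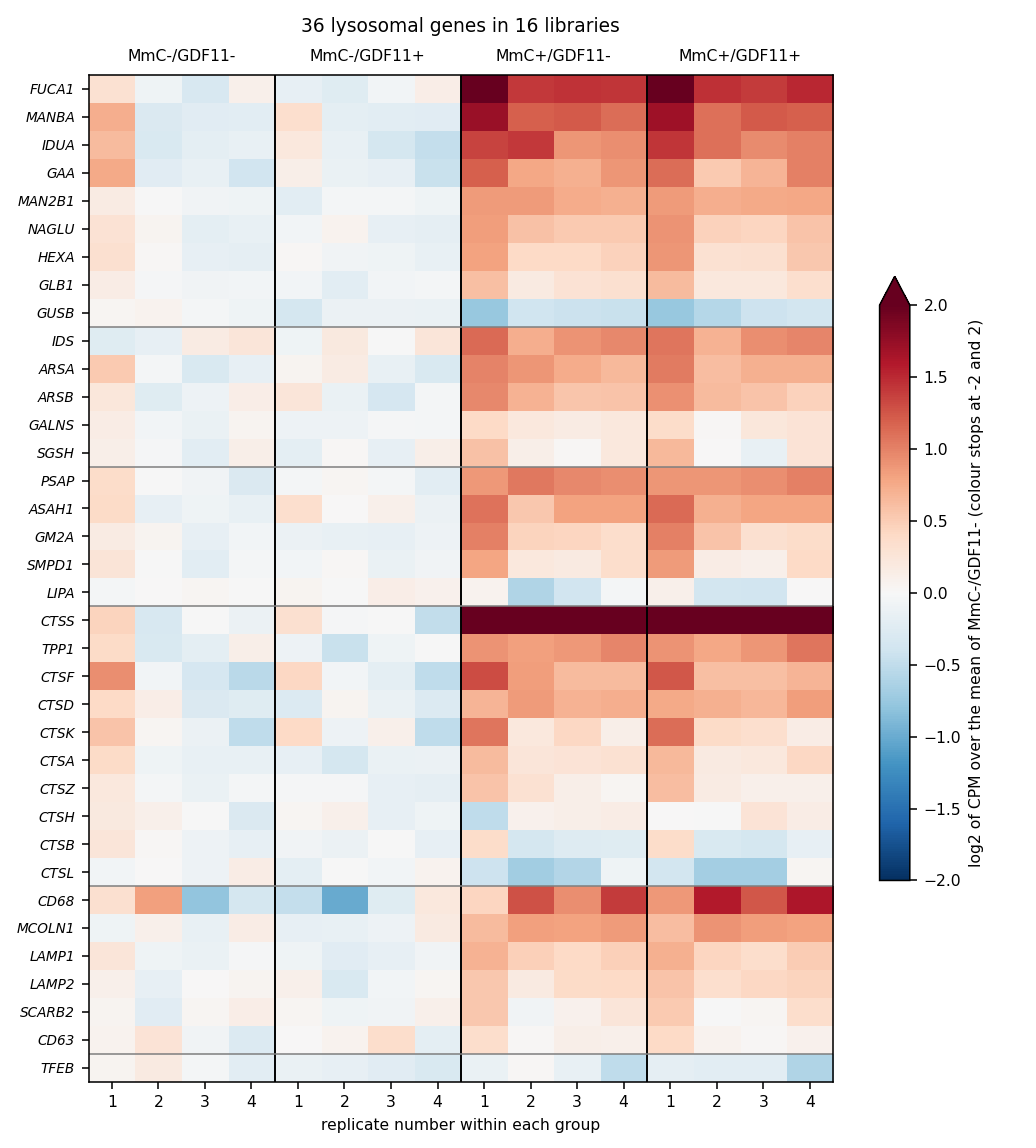
Log2 ratio of each library's CPM to the mean of MmC-/GDF11- for the 36 tested genes (rows, by role and by fold change) in the 16 libraries (columns, by group and replicate number), red above and blue below that mean. The MmC+ columns are red for most genes, GUSB is blue there, CTSL is blue there except in replicate 4 of MmC+/GDF11+, and replicate 1 of MmC-/GDF11-, MmC+/GDF11- and MmC+/GDF11+ is redder than its group, in which 26, 25 and 27 of the 36 genes were highest in replicate 1.

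The question of the study was what GDF11 changes in young and in senescent cells. For these genes the answer of the test was no call in either. In young cells 0 of the 36 genes passed (0% of all genes), and none had an unadjusted p under 0.05, against 1.18% of all genes. The fold changes were small, from -0.43 to 0.08 on the log2 scale with a median of -0.09, and 32 of 36 were below 0. Without replicate 1 of every group 18 were below 0, 15 above and 3 at 0 to 2 decimals, with a median of -0.01, and without replicate 1 of MmC-/GDF11- alone the median was 0.01. GUSB had the lowest unadjusted p (log2 -0.18 ± 0.10, 95% interval -0.39 to 0.04, unadjusted p 0.102, edgeR adjusted p 1). It was also the only gene whose young libraries did not overlap, at 41.7 CPM or less with and 42.5 CPM or more without GDF11, where 0.513% of all genes lay below in the same way and 0.89% did not overlap in either direction. The 95% intervals, each for 1 gene and from the fit without pairing, show how closely the effect of GDF11 was estimated. They were -0.32 to 0.14 on the log2 scale for GLB1, -0.34 to 0.18 for PSAP, -0.37 to 0.09 for LAMP1, -0.50 to 0.07 for TFEB and -0.50 to 0.39 for CTSS. Over the 36 genes the lower ends reached -1.23 and the upper ends 0.54.

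In senescent cells 0 of the 36 genes passed (0% of all genes), and none had an unadjusted p under 0.05, against 0.503% of all genes. The log2 fold changes ran from -0.11 for TFEB to 0.32 for CD68, with a median of -0.01 and 16 of 36 above 0. The libraries with and without GDF11 overlapped for all 36 genes, while among all genes 0.209% lay above and 0.293% below, 0.503% in all. CD68 had the lowest unadjusted p (-0.36 to 0.99 as the 95% interval, unadjusted p 0.336, edgeR adjusted p 1). For GLB1 the interval was -0.22 to 0.23, for PSAP -0.29 to 0.22, for LAMP1 -0.24 to 0.22, for TFEB -0.40 to 0.17 and for CTSS -0.47 to 0.40. These intervals are from the fit without pairing, while same-numbered libraries deviated together in this comparison (lowest correlation across genes 0.448). They therefore include differences between replicates that both groups share. Intervals with the replicate number as a block are not given here. limma-voom and DESeq2 also called none of the 36 genes for GDF11, and neither gave an unadjusted p under 0.05 for any of them.

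Other genes of the lysosome were counted from lists drawn up beside this one. Over all genes tested 22.9% were higher and 22.4% lower after MmC without GDF11. Without GDF11, 16 of 29 tested further hydrolases and activators were higher after MmC and 5 lower, with a median log2 fold change of 0.39. Among them, GGH, which removes glutamates from folates, fell most, 1.87-fold, from 56.2 to 71.5 CPM in the young to 31.8 to 36.7 CPM in the senescent libraries.

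Of 20 further membrane proteins 12 were higher and 1 lower. NPC1, the cholesterol exporter, rose 1.89-fold (edgeR adjusted p 0.017), LAPTM5, a membrane protein best known from leukocytes, rose most, 6.89-fold but to no more than 1.77 CPM without GDF11, and the cation channel TPCN2 was 1.35-fold lower. Of the 7 tested macrophage and leukocyte markers given beside CTSS, 4 were higher, 1 was lower and 2 did not pass. The part of such cells in the rise of LAPTM5 was not tested. Of 19 tested V-ATPase subunits 13 were higher and 1 lower, from 2.18-fold higher for ATP6V0A1 to 1.85-fold lower for ATP6V0E2. Of 13 tested genes of enzyme sorting and processing 4 were higher and 2 lower, not far from the 22.9% and 22.4% of all genes. GNPTAB, which starts the mannose 6-phosphate tag, was 3.05-fold higher, from 33.0 to 52.3 CPM in the young to 115 to 152 CPM in the senescent libraries, M6PR, a receptor of the tag, did not pass (log2 0.04 ± 0.09, adjusted p 0.741), and CLN6, an endoplasmic reticulum protein, was 1.38-fold lower.

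The relatives of TFEB and the nutrient signalling genes upstream of them had 5 of 21 higher, 3 lower and a median log2 fold change of 0.03. Over all genes 22.9% were higher and 22.4% lower. TFE3 and MITF did not pass (log2 -0.14 ± 0.09 and 0.03 ± 0.12, edgeR adjusted p 0.218 and 0.83). TFEC was 4.51-fold higher (adjusted p 8.5e-07), from at most 0.367 CPM in the young to 1.15 to 1.47 CPM in the senescent libraries, and ZKSCAN3, a zinc finger protein known as a repressor of autophagy genes, was 1.56-fold lower. No test compared these lists with each other or with the 36 genes.

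**Figure D5:**
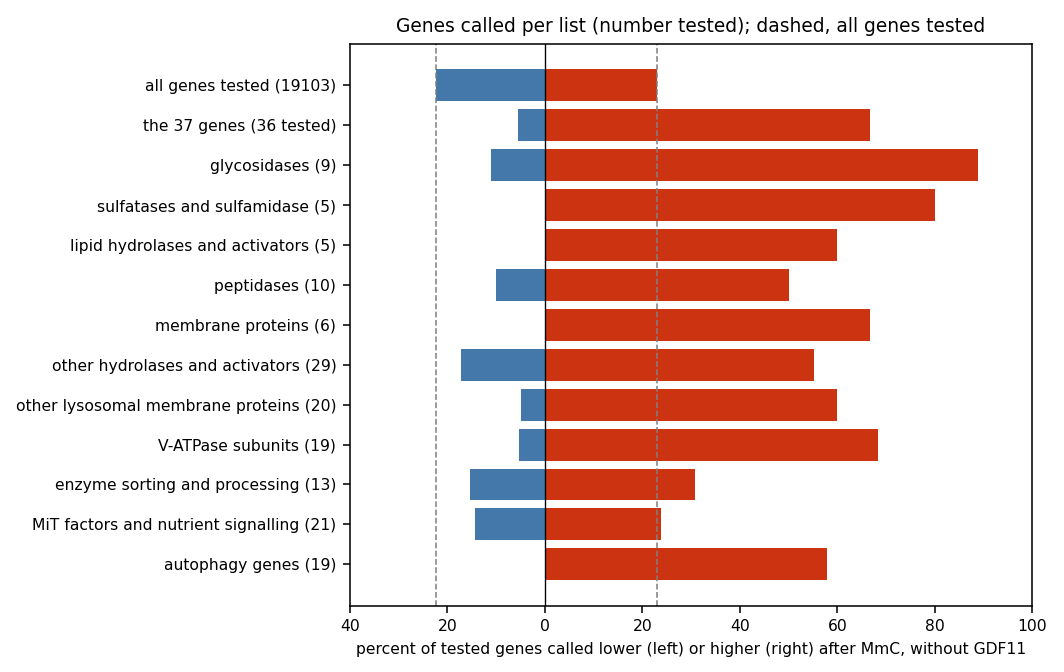
Percent of the tested genes of each list (y axis, number tested in parentheses) called higher (red, right) or lower (blue, left) after MmC without GDF11, with dashed lines at the values for all genes, 22.9% and 22.4%. The 36 tested genes have 24 higher and 2 lower, the V-ATPase subunits 13 of 19 higher, and the nutrient signalling list 5 of 21 higher, near the dashed line.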

How the data were processed

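The deposited values are raw counts per gene, which the authors made by HISAT2 2.2.1 alignment to hg38 and featureCounts 2.0.1 on GENCODE V38, with no normalization. The strand setting and the treatment of read pairs and of multiply aligned reads are not given in the sources used here. GENCODE v44 supplied symbols, positions and transcript lengths.

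The tests ran in edgeR 4.0.16 (R 4.3.3). After filterByExpr at its defaults (count 10, total 15) and TMM scaling, a robust quasi-likelihood model with a mean for each group was fitted over the 16 libraries. The study's text names no test for differential expression. CPM and fold changes were computed here. Steps were tested on simulated data. There 67, 67 and 66 of 18776 genes were changed 1.5-, 2- and 4-fold, and 40.3, 85.1 and 97% of them were recovered. Far more genes passed in the real MmC comparisons, so these shares do not carry over to them directly.

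The members and lists were chosen with earlier results of these data known. All 37 genes may be named, and values in every library are given for GLB1, TFEB, MCOLN1, LAMP1 and CD63 and for the called genes with the highest and lowest fold change of each class (for peptidases the 2 highest and 2 lowest). Of the other lists, NPC1, M6PR, TFE3, MITF, SQSTM1 and the highest and lowest called gene of each list are named, and for GDF11 the member with the lowest unadjusted p. Some genes that this rule names are not reported here. Genes outside this rule (markers and label checks) came from fixed lists.

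Alternatives were scaling by RLE or upper quartiles, no filter, a minimum of 10 counts in each library, a fit of the compared 8 libraries alone, the replicate number as a block, limma-voom (limma 3.58.1), DESeq2 1.42.0, leaving out replicate 1 of every group and leaving out each library in turn. Leaving out members that share at least 20% of their exonic sequence with same-strand genes, or at least 50% of their words with alternate contigs, was added after seeing the data.

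The study's text does not say that replicate numbers pair libraries. Across genes, the lowest correlation of the deviations of same-numbered libraries was 0.113 for MmC without GDF11, 0.0293 for MmC with GDF11, 0.0982 for GDF11 in young and 0.448 for GDF11 in senescent cells. Pairing was taken to hold over 0.1, thus for the first and the last. No libraries within a group agreed within sampling noise.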

Additional observations from a re-analysis of the deposited data

Results flagged for a closer look

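In each group of 4 libraries, the highest or lowest value of a gene was checked for a gap to its neighbour that took more of the group's whole range than Dixon's 95% critical value for 4 samples allows, which chance gives in about 1 of 20 groups. This held in 22 of 144 groups, 15.3%, for 17 of the 36 genes. Genes of 1 library can vary together, so the 144 checks are not independent, and the share over all genes was not counted. In 19 of the 22 the library was replicate 1, which was the highest of its group in 17 and the lowest in 2. The paper lists batch effects from technical issues among its limitations and does not say which libraries they concern. No explanation of the place of replicate 1 was tested.

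In MmC-/GDF11-, replicate 1 was high for the glycosidases GAA (78.2 CPM, next 42), MANBA (42.1, next 22.1) and IDUA (27.5, next 16.0), for the ceramidase ASAH1 (94.0, next 67.6) and for the carboxypeptidase CTSA (372, next 270). In MmC+/GDF11-, replicate 1 was high for HEXA (134 CPM, next 106), MANBA (83.9, next 59.7), FUCA1 (23.5, next 13.7), the activator GM2A (107, next 72.8), CTSA (444, next 355) and CTSB (2010, next 1320), and low for CTSH (0.831, next 1.25). In MmC+/GDF11+ it was high for FUCA1 (22.4 CPM, next 14.4), ASAH1 (157, next 124), the cathepsins CTSF (24, next 16.2) and CTSZ (359, next 262), and CD63 (2090, next 1690).

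In MmC-/GDF11+, replicate 1 was high for MANBA (32.0 CPM, next 22.2) and low for GUSB (35.2, next 41.2). The exceptions to replicate 1 were GLB1 in MmC-/GDF11+, low in replicate 2 (76.2 CPM, next 84.3), MCOLN1 in the same group, high in replicate 4 (16.0, next 13.2), and TFEB in MmC+/GDF11+, low in replicate 4 (3.08, next 4.01).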

How the results depend on the processing

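No log2 fold change that passed the test changed sign under any alternative. Without GDF11, 21 of 26 calls held in all 17 alternatives; GALNS, CTSA, CTSF, CTSL and CD68 were lost in some, and SMPD1, LIPA, CTSK and CTSZ passed in some. With GDF11, 24 of 27 held, SMPD1, CTSF and CTSZ were lost in some, and CTSK, CTSL and SCARB2 passed in some. Without GDF11 the number of members called lower fell from 2 to 1 with at least 10 counts in every library, where CTSL was lost, and lay between 1 and 2 when 1 library was left out (1 without MmC+/GDF11- replicate 1, 2 or 3 or MmC-/GDF11- replicate 2 or 4). With GDF11 it went from 1 to 2 with the replicate number as a block, where CTSL was added, and lay between 1 and 2 when 1 library was left out (2 without MmC+/GDF11+ replicate 4). The cause was not tested. With the block 27 and 28 members were called higher and 2 and 2 lower, without and with GDF11, and none was called for GDF11, where 2 members had an unadjusted p under 0.05 in young cells. For MmC without GDF11, where pairing was taken to hold by a lowest correlation of 0.113, just over the limit of 0.1, the block added CTSK, CTSZ and SMPD1. It changed no other call of the 36 genes. Without replicate 1 of every group 26 and 27 were higher, and LIPA passed as lower without GDF11 while CTSL did not (edgeR adjusted p 0.0497 and 0.0549). Leaving out IDS, CD68, CTSD and MAN2B1 for shared sequence (CTSO, also shared, was not tested) left 20 and 22 of 32 higher. With upper-quartile scaling the median log2 fold change of the members was 0.57 without and 0.70 with GDF11, and that of all genes 0.02 and 0.03. Depth limits CD68 most, and intervals cover the spread between these libraries only.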

Other observations

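Autophagy genes, which feed the lysosome, were counted as a separate list. After MmC without GDF11, 11 of 19 tested were higher and none was lower, with a median log2 fold change of 0.23, where 22.9% of all genes were higher and 22.4% lower. SQSTM1, the cargo receptor also called p62, rose most. Its libraries held 527, 532, 427 and 521 CPM before and 1040, 1560, 1260 and 1360 CPM after MmC, without overlap, 2.6-fold higher (edgeR adjusted p 1.13e-06). With GDF11 the values were 473, 556, 458 and 496 CPM before and 1040, 1380, 1270 and 1400 CPM after MmC. UVRAG, a subunit of a lipid kinase complex of autophagy, had the smallest rise that passed (1.14-fold, adjusted p 0.0494). Of 4 tested cystatins, inhibitors of cysteine cathepsins, CSTA was higher (3.48-fold, adjusted p 0.00608), at 2.50 to 11.7 CPM before and 16.8 to 24.3 CPM after MmC, and the other 3 did not pass.

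Markers of other cell types also moved after MmC without GDF11, where 22.9% of all genes were higher and 22.4% lower. Of 5 endothelial markers 3 were higher (PECAM1, VWF and KDR, the last at 0.221 CPM at most), CDH5 was lower and TEK did not pass. Their summed level was 47.5 to 75.8 CPM in MmC-/GDF11- and 58.8 to 111 CPM in MmC+/GDF11-. Most of that sum was TEK, at 39 to 65.5 CPM and 41.7 to 103 CPM. Of 4 epithelial markers 2 were tested and neither passed, at a summed 1.08 to 1.69 CPM in MmC-/GDF11- and 1.38 to 1.57 CPM in MmC+/GDF11-. The part of such cells in the results on lysosomal genes was not tested.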
